A study of Mus musculus with 2 samples.

Results

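Neuronal and oligodendrocyte miRNAs were read from 10 probes of a NanoString miRNA panel, as a check on the purity of vesicles from cultured mouse astrocytes. Extracellular vesicles (EVs) are small membrane-bound packets that cells release. The panel is a rat code set with 420 miRNA probes. Probes were chosen by name, as those for miR-9, miR-124, miR-128, miR-129, miR-137, miR-138, miR-218, miR-219 and miR-338, in either arm of the hairpin and leaving out star forms. These 9 numbers gave 10 of the 420 probes, namely miR-9, miR-124, miR-128, miR-129, miR-137, miR-138, miR-219-5p, miR-219-1-3p, miR-219-2-3p and miR-338. No probe is called miR-218 without a letter, so miR-218a and miR-218b were left out of the 10 and are described beside them.

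The IL-1β vesicles came from GFAP-EGFP astrocytes given interleukin-1beta, a cytokine of brain inflammation, at 200 ng per ml, with the medium taken 2 h later. Control vesicles came from GFAP-EGFP astrocytes with no treatment and were gathered over 24 h, so treatment and collection time changed together and their parts cannot be told apart. Each group was 1 sample, no difference has a replicate check, and no p-value is given. Per the labels' protocols, astrocytes came from the cortex of C57B6J and GFAP-EGFP mice at postnatal day 1 and were grown with 10% fetal bovine serum and used between passages 3 and 10, with EGFP driven by the GFAP promoter. The same protocols put the cultures at 98% GFAP-positive cells and the flasks used for stimulation at 8 to 10.

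Adult brain cells differ sharply in their miRNAs. Neurons are rich in miR-124 and miR-128, myelinating oligodendrocytes in miR-219 and miR-338, and neural progenitors in miR-9, which astroglia share. A miRNA works by pairing its seed, bases 2 to 8, with sites in target mRNAs. Each seed is therefore a signature of which mRNAs the miRNA can repress. EVs carry a selection of the RNA of the cells that shed them, so a count in EVs is not a count of cells. Fewer cells of a type and less RNA released per cell cannot be told apart in such a bulk sample.

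The mature mouse sequences below are those the check looks for, and show that these members share no seed. They are from RefSeq (GRCm38.p6), 5′ to 3′, with the seed in capitals. RefSeq's table gave a mature sequence for 8 of the 10 members and for miR-218a, and miR-124 and miR-219-2-3p are named only. The probes were designed for rat, and whether each pairs fully with the mouse miRNA was not tested.
miR-9-5p: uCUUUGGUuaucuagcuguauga
miR-128-3p: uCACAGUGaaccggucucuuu
miR-129-5p: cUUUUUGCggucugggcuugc
miR-137-3p: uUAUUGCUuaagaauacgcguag
miR-138-5p: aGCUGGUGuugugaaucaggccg
miR-219a-5p: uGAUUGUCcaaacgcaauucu
miR-219a-1-3p: aGAGUUGCgucuggacgucccg
miR-338-3p: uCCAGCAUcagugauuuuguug
miR-218-5p: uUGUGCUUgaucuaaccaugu
The 8 member sequences run from 21 to 23 bases, have 8 distinct seeds and come from 14 genomic copies. No other mature mouse miRNA in the table has any of the 8 seeds, while that of miR-218-5p is also the seed of miR-7002-3p.

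Background was set in each sample by its own 8 negative controls, probes with no target in the sample. They read 0 to 10 counts in IL-1β vesicles (mean 3.125, SD 3.27) and 1 to 5 counts in control vesicles (mean 3.25, SD 1.58). A probe was called above background when its raw count passed the mean plus 2 SD, 9.67 counts in IL-1β vesicles and 6.41 in control vesicles. The higher threshold of IL-1β vesicles came with 1 negative control at 10 counts, itself above the threshold, while the next highest read 5. Among the 6 positive controls, RNAs added in known amounts, the one named for amount 0.5 read 12 counts in IL-1β vesicles and 10 in control vesicles, above background in both. The one for amount 0.125 read 4 counts in IL-1β vesicles and 2 in control vesicles, below it in both. The files name no unit for these amounts, and the controls do not cover extraction. All miRNA probes summed to 13514 counts in IL-1β vesicles and 16812 in control vesicles.

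Probes for neuronal and oligodendrocyte miRNAs nearly all read at background in both preparations. Above it were 0 of the 10 members in IL-1β vesicles, where 34.8% of all 420 miRNA probes passed, and 1 of 10 in control vesicles, where 44.0% passed. The exception was miR-219-5p in control vesicles. Members read 0 to 6 counts in IL-1β vesicles, with a median of 1, and 1 to 8 counts in control vesicles, with a median of 2.5. The median of all 420 probes was 5 counts in both. In each sample 7 of the 10 members were at or below the mean of the negative controls. A count at background on this rat panel does not show that the miRNA was absent. Whether each probe detects its mouse miRNA was not tested, and some probes for astrocyte-associated miRNAs, given below, also read at background.

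Summed, the 10 members gave 21 counts in IL-1β vesicles (95% exact Poisson interval 13.0 to 32.1) and 28 in control vesicles (18.6 to 40.5). As many probes reading the negative-control mean would have given 31.25 counts in IL-1β vesicles and 32.5 in control vesicles. Per probe, members read 0.672 times the negative controls in IL-1β vesicles (95% interval 0.358 to 1.25) and 0.862 times in control vesicles (0.487 to 1.53). Both intervals include 1. They leave out the spread between probes, such as the negative-control SD of 3.27 in IL-1β vesicles, so they are no test of the members as a set. Their sum was 0.155% of all miRNA counts in IL-1β vesicles (95% exact binomial interval 0.0962 to 0.237) and 0.167% in control vesicles (0.111 to 0.241). All these intervals cover counting error only. The share of GFAP-positive cells that the labels give was not tested by these counts.

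**Figure D1:**
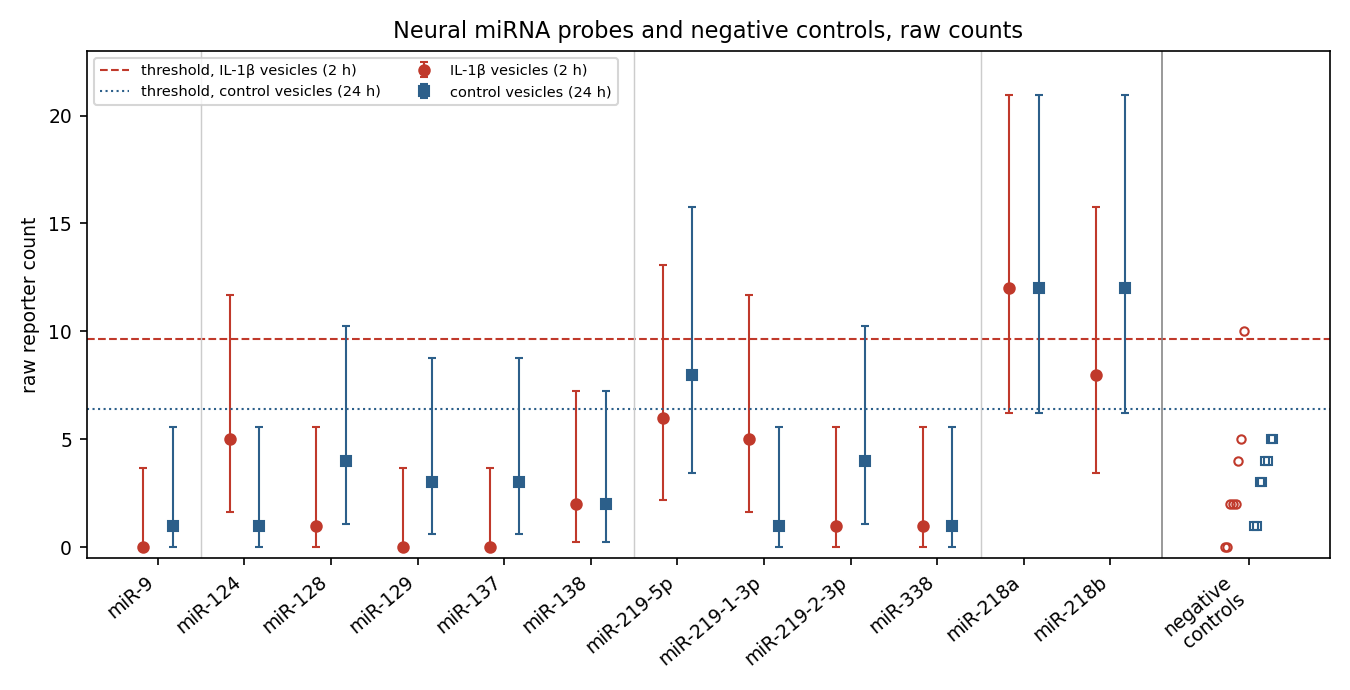
Raw reporter count (y axis) of the 10 member probes, of miR-218a and miR-218b, and of the 8 negative controls (open symbols) in IL-1β vesicles (circles) and control vesicles (squares). Bars are 95% exact Poisson intervals, 1 sample per group, and lines are the background thresholds of 9.67 counts for IL-1β vesicles and 6.41 for control vesicles. Among the 10 members the single point above its own line is miR-219-5p in control vesicles, at 8 counts.

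Of the members, miR-9 is the one shared with astroglia, and it was among the lowest. It read 0 counts in IL-1β vesicles, for which the limit of 3 counts that a count of 0 allows is 0.0222% of the miRNA counts, and 1 count in control vesicles. All 8 negative controls read as much or more in each sample. In progenitors miR-9 represses the nuclear receptor gene Nr2e1, and it is made in mouse from 3 genes, Mir9-1 (chr3:88215613-88215635, plus strand), Mir9-2 (chr13:83738821-83738843, plus) and Mir9-3 (chr7:79505279-79505301, plus). Mir9-2 lies within the bounds of the long noncoding RNA gene C130071C03Rik, and for the others RefSeq lists no named host. Because astroglia share miR-9, its count alone does not separate cell types.

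The neuronal members stayed below background throughout. The most neuron-specific of them, miR-124, which represses non-neuronal transcripts such as Ptbp1, read 5 counts in IL-1β vesicles and 1 in control vesicles. In IL-1β vesicles 2 of the 8 negative controls read at least as much as miR-124, and in control vesicles all 8 did. The 5 counts of miR-124 had a Poisson interval of 1.62 to 11.7 and the 1 count one of 0.0253 to 5.57, so the intervals of the samples overlap. At its upper bound miR-124 would be 0.0863% of the miRNA counts in IL-1β vesicles and 0.0331% in control vesicles. Against miR-125b-5p, the highest probe in both samples with 1478 counts in IL-1β vesicles and 1660 in control vesicles, that bound is 0.789% in IL-1β vesicles and 0.336% in control vesicles, as a ratio of counts between probes that may differ in efficiency.

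Also neuronal is miR-128, which dampens neuronal excitability, and it read 1 count in IL-1β vesicles and 4 in control vesicles. It is made from Mir128-1 within the bounds of R3hdm1 (chr1:128202404-128202424, plus strand) and Mir128-2 within those of Arpp21 (chr9:112118644-112118664, minus). Its seed also stands at bases 3 to 9 of miR-27b, a miRNA of astrocytes and many other cells, shown here with those shared bases in capitals.
miR-27b-3p: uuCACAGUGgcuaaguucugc
The miR-27b probe read 40 counts in IL-1β vesicles and 124 in control vesicles (the mouse sequence is at chr13:63300760-63300780, plus strand). Counts on the miR-128 probe were below background in both samples, unlike those of miR-27b, with which it shares these 7 bases. The sequences differ elsewhere, so the miR-27b counts do not test whether the miR-128 probe detects mouse miR-128.

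The miR-129 probe read 0 counts in IL-1β vesicles and 3 in control vesicles, and the miR-137 probe the same. In neurons miR-129 represses the potassium channel gene Kcna1, and miR-137 acts in neuronal maturation and at synapses. The mouse copies of miR-129-5p are at chr2:94241419-94241439 (minus strand, Mir129-2) and chr6:29022624-29022644 (plus, Mir129-1), and that of miR-137-3p is at chr3:118433901-118433923 (plus). By the same limit of 3 counts, each zero in IL-1β vesicles allows a share of up to 0.0222%, and the 3 counts in control vesicles were matched or passed by 6 of the 8 negative controls. Of the last neuronal member, miR-138, which limits dendritic spine size in rat neurons and also promotes oligodendrocyte differentiation, there were 2 counts in IL-1β vesicles and 2 in control vesicles. It has copies at chr8:94324312-94324334 (plus strand, Mir138-2, within the bounds of Nup93) and chr9:122682898-122682920 (plus, Mir138-1). Together the 5 neuronal members without miR-9 gave 8 counts in IL-1β vesicles and 13 in control vesicles, where 5 probes at the negative-control mean would give 15.625 counts in IL-1β vesicles and 16.25 in control vesicles.

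The oligodendrocyte members held the highest count of the 10. In maturing oligodendrocytes miR-219 represses Pdgfra, Sox6 and Hes5, genes that keep precursors dividing. The miR-219-5p probe read 6 counts in IL-1β vesicles (interval 2.20 to 13.1) and 8 in control vesicles (3.45 to 15.8). It was below the threshold in IL-1β vesicles, where 1 of the 8 negative controls read as much or more, and above it in control vesicles, where none did. The next highest member counts were below the thresholds, at 5 against 9.67 in IL-1β vesicles and 4 against 6.41 in control vesicles. Their Poisson intervals, 1.62 to 11.7 in IL-1β vesicles and 1.09 to 10.2 in control vesicles, include those thresholds. In the order of all 420 probes miR-219-5p ranked 185 in IL-1β vesicles and 161 in control vesicles, and 56.2% of probes in IL-1β vesicles and 61.9% in control vesicles read as little or less.

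Sequence copies of miR-219a-5p lie at chr2:29845689-29845709 (minus strand, Mir219a-2, within the bounds of Cercam) and chr17:34025052-34025072 (minus, Mir219a-1). The opposite arms read 5 counts in IL-1β vesicles and 1 in control vesicles for miR-219-1-3p, and 1 in IL-1β vesicles and 4 in control vesicles for miR-219-2-3p. These 3p arms, of which the mouse copy of the first is at chr17:34025010-34025031 (minus strand), had no common order between the samples and were below background in both. The other oligodendrocyte miRNA, miR-338, which acts beside miR-219 in differentiation, read 1 count in IL-1β vesicles and 1 in control vesicles, with 6 of 8 negative controls at or above it in IL-1β vesicles and all 8 in control vesicles. It lies at chr11:120014781-120014802 (minus strand) within the bounds of Aatk, a kinase gene of the nervous system. The 4 oligodendrocyte members summed to 13 counts in IL-1β vesicles and 14 in control vesicles, where 4 probes at the negative-control mean would give 12.5 counts in IL-1β vesicles and 13 in control vesicles.

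**Figure D2:**
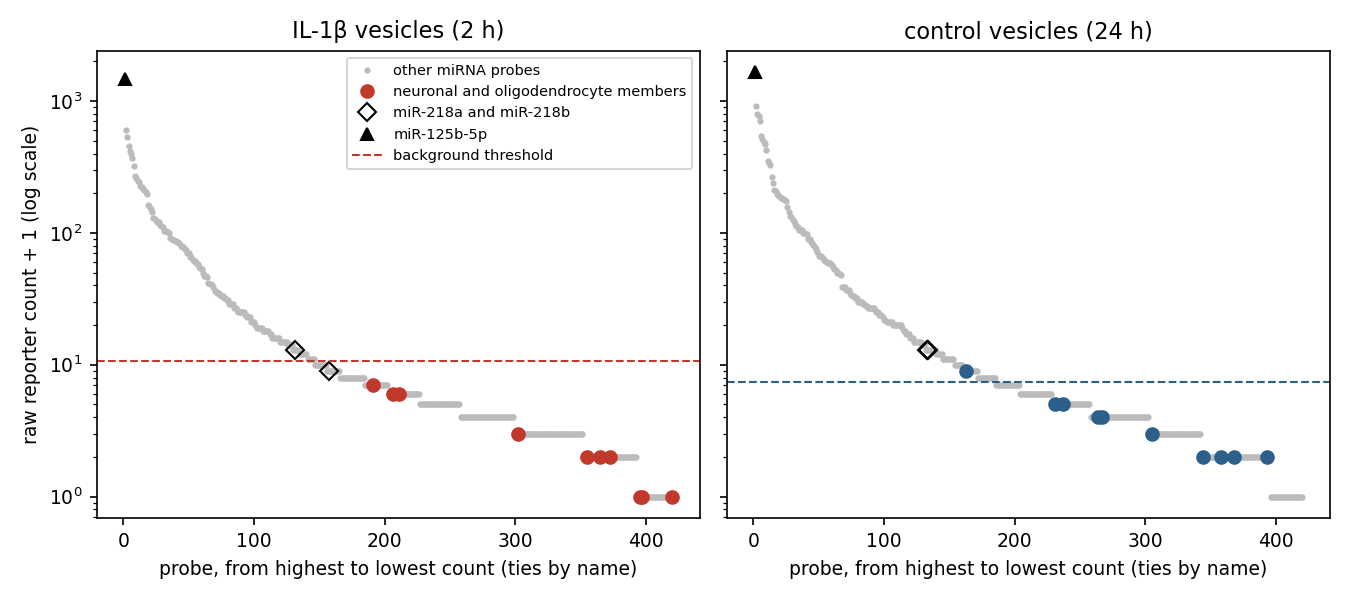
Raw reporter count plus 1 on a log scale (y axis) of all 420 miRNA probes, ordered from highest to lowest (x axis), in IL-1β vesicles (left) and control vesicles (right), 1 sample each, with the background threshold as a dashed line. Members (filled circles) lie from the middle of the order down, at 0 to 6 counts in IL-1β vesicles and 1 to 8 in control vesicles. Their highest, miR-219-5p, ranks 185 in IL-1β vesicles and 161 in control vesicles. The highest probe, miR-125b-5p, stands at 1478 counts in IL-1β vesicles and 1660 in control vesicles.

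No member could be given a fold change between IL-1β and control vesicles. A ratio was formed where a probe was above background in at least 1 sample, after scaling on the 100 highest probes, and a probe below background in the other sample was given a bound against that sample's threshold. For miR-219-5p the bound fell on the wrong side of 1. With no value for any of the 10, none could be called higher or lower, and nothing about their change can be read from this. A rise of a member in IL-1β vesicles that stayed below the threshold of 9.67 counts would not have been called.

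The lettered probes for miR-218, a miRNA of motor neurons and other neurons that represses genes of other neuronal identities, read higher than the members. The miR-218a probe gave 12 counts in IL-1β vesicles (interval 6.20 to 21.0) and 12 in control vesicles, above background in both. Its scaled ratio was 1.14 (95% interval 0.469 to 2.78), which includes 1. The miR-218b probe gave 8 counts in IL-1β vesicles, below the threshold, and 12 in control vesicles, above it. No negative control reached the miR-218a count in either sample. Mouse miR-218-5p is encoded at chr5:48223966-48223986 (plus strand, Mir218-1) within the bounds of Slit2 and at chr11:35616840-35616860 (plus, Mir218-2) within those of Slit3, both axon guidance genes that cells other than neurons also use.

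A second view of background came from probes whose miRNA number no mouse gene in RefSeq shares, 69 of the 420. They had a median of 15 counts in IL-1β vesicles and 13 in control vesicles, against 4 in both samples for the other 351. By the negative-control threshold, 41 of the 69 were above background in IL-1β vesicles and 49 in control vesicles. Of all 420 probes, 34.8% passed in IL-1β vesicles and 44.0% in control vesicles. Passing the negative-control threshold is therefore not taken as proof that a mouse miRNA was counted. The 69 probes were picked by number alone, and whether any has a mouse counterpart under another number was not tested. All 10 members were below the medians of the 69 probes in both samples, and so were miR-218a and miR-218b. Whether the miR-218 counts are mouse miR-218 or counts of the kind seen on these 69 probes was not tested.

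The authors' deposited table of signals lists 124 of the 420 probes, of which 12 were below background in both raw samples, and 0 of the 10 members. In the authors' deposited table miR-218a has a signal of 118.14 in IL-1β vesicles and 294.27 in control vesicles, with a ratio of 0.4. The raw counts put it at 12 in both samples. The sources used here do not say how those signals were made.

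Probes for other cell types give the frame in which the low members stand. Of 12 astrocyte-associated probes found on the code set, 10 were above background in IL-1β vesicles and 10 in control vesicles. Of all 420 probes, 34.8% passed in IL-1β vesicles and 44.0% in control vesicles. Below background in both were miR-26a (6 counts in IL-1β vesicles, 3 in control vesicles) and miR-23b (2 in IL-1β vesicles, 1 in control vesicles). The 12 probes had a median of 106 counts in IL-1β vesicles and 197 in control vesicles. The highest was miR-125b-5p, at the counts given above. Next by the mean of both samples came miR-125a-5p, with 537 counts in IL-1β vesicles and 545 in control vesicles, and miR-181a, with 244 in IL-1β vesicles and 792 in control vesicles. They summed to 22.7% of miRNA counts in IL-1β vesicles and 24.8% in control vesicles, but these miRNAs are abundant in many cells and do not single out astrocytes. Of the 160 probes on the code set with a ratio or bound, 5.62% were called higher and 9.38% lower, by 2-fold or more. Called lower in IL-1β vesicles on the astrocyte list were miR-181a (ratio 0.352, 95% interval 0.304 to 0.407), miR-100 (0.316, 0.248 to 0.400) and miR-27b (0.369, 0.251 to 0.530).

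**Figure D3:**
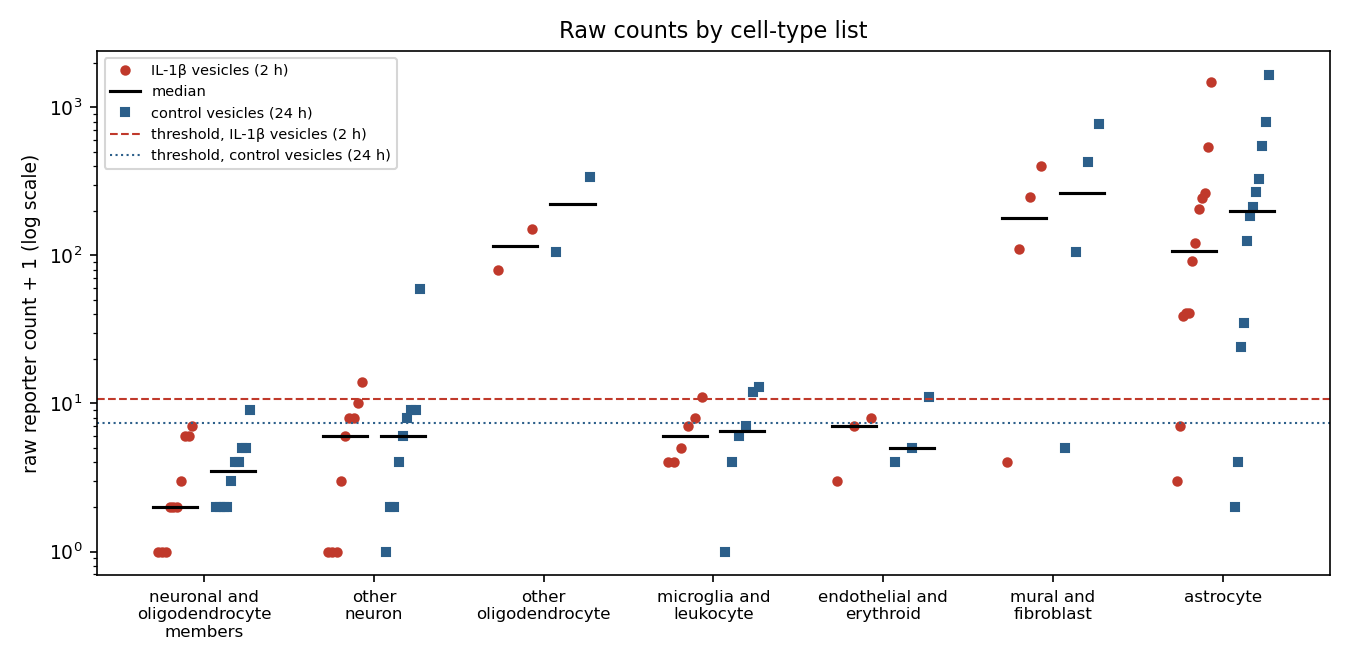
Raw reporter count plus 1 on a log scale (y axis) for the 10 members and for 6 lists of probes associated with other cell types (x axis), in IL-1β vesicles (circles) and control vesicles (squares), with medians as bars and background thresholds as lines. The members have a median of 1 count in IL-1β vesicles and 2.5 in control vesicles, against 106 in IL-1β vesicles and 197 in control vesicles for the astrocyte list.

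Of 9 other neuron-associated probes, 1 was above background in IL-1β vesicles, where 34.8% of all probes passed, and 4 in control vesicles, a share of 44.4% close to the 44.0% of all probes. The miR-132 probe, for a miRNA induced by neuronal activity and, in other cells, by inflammatory signals, read 13 counts in IL-1β vesicles and 58 in control vesicles (ratio 0.256, 95% interval 0.129 to 0.473). Its partner from the same primary transcript, miR-212, read 0 counts in both. The remaining control calls were miR-383 (7 counts in IL-1β vesicles, 8 in control vesicles), miR-7a (5 in IL-1β vesicles, 8 in control vesicles) and miR-134 (0 in IL-1β vesicles, 7 in control vesicles), whose control counts were within 2 counts of the 6.41 threshold. Further oligodendrocyte-associated probes were above the negative-control threshold, with 150 counts in IL-1β vesicles and 336 in control vesicles for miR-23a, and 78 in IL-1β vesicles and 104 in control vesicles for miR-32, but both are made in many cell types. The miR-32 counts were below the 95th percentile of the 69 panel probes without a mouse number, 111.8 counts in IL-1β vesicles and 104.6 in control vesicles. This held for probes of other lists too. The mural and fibroblast probe miR-214 was below it in both samples, with 110 counts in IL-1β vesicles and 104 in control vesicles. In IL-1β vesicles so were miR-100 (91 counts), miR-27b (40) and the astrocyte-list median of 106. The astrocyte-list probes miR-125b-5p, miR-125a-5p and miR-181a were above it in both.

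Markers of further cell types were split, against 34.8% of all 420 probes above background in IL-1β vesicles and 44.0% in control vesicles. Of 6 microglia and leukocyte probes, 1 was above background in IL-1β vesicles (16.7%) and 2 in control vesicles (33.3%). So few probes cannot be set apart from the share of all probes. The highest of them, miR-142-3p, a miRNA of blood-lineage cells, read 10 counts in IL-1β vesicles and 12 in control vesicles. Its count in IL-1β vesicles was just above the threshold of 9.67, and 1 negative control there also read 10. By the mean of both samples miR-142-3p was followed by miR-142-5p, with 6 in IL-1β vesicles and 11 in control vesicles. Then came miR-342-3p, with 7 in IL-1β vesicles and 6 in control vesicles. Of 3 endothelial and erythroid probes, 0 passed in IL-1β vesicles and 1 in control vesicles (33.3%), again too few to set apart from that share. That one was miR-126 of endothelium, with 7 counts in IL-1β vesicles and 10 in control vesicles, while the erythroid miRNAs miR-451 (6 in IL-1β vesicles, 4 in control vesicles) and miR-144 (2 in IL-1β vesicles, 3 in control vesicles) were below background. Of 4 mural-cell and fibroblast probes, 3 were above background in each sample (75%), more than the share of all probes but also on few probes. Their highest was miR-145, a smooth muscle miRNA, at 397 counts in IL-1β vesicles and 775 in control vesicles. It was followed by miR-199a-3p at 246 in IL-1β vesicles and 425 in control vesicles, and miR-214 at 110 in IL-1β vesicles and 104 in control vesicles. The remaining probe, for miR-143, which is made from the same cluster as miR-145, was below background with 3 counts in IL-1β vesicles and 4 in control vesicles. The part of other cells or of serum in any of these counts was not tested.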

How the data were processed

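EV RNA of 2 samples, 1 per group, was read on the NanoString nCounter rat miRNA code set. Per the file headers, the deposited raw files hold reporter counts with no normalization. The authors also deposited normalized signals, by a method the files and labels do not state, and their ratio, IL-1β to control.

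Background was the mean plus 2 SD of a sample's 8 negative controls. Counts were scaled on the geometric mean of the 100 highest miRNA probes (factor 0.875, IL-1β to control) with no subtraction. Among those 100 were probes with no mouse number, such as miR-3583-3p with 270 counts in IL-1β vesicles and 238 in control vesicles. Poisson intervals are exact, and ratio and share intervals are Clopper-Pearson, all at 95%, for counting error only. A call needed 2-fold and an interval without 1. The interval code was tested on simulated counts (Python 3.11.15, scipy 1.17.1).

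Named were all members, the miR-218 probes, and from each cell-type list the 3 highest probes and any called. The probes miR-23b, miR-26a, miR-134, miR-143 and miR-212 were added after their values were seen. Members and lists were chosen with earlier results of these data known. Alternatives were other thresholds, scalings, subtraction and membership. Sequences and gene bounds are RefSeq's (GRCm38.p6).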

Additional observations from a re-analysis of the deposited data

How the results depend on the processing

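The number of members above background depended on the threshold. In IL-1β vesicles it was 0 of 10 with the mean plus 2 SD, with the mean plus 3 SD, with the highest negative control and with the 95th percentile of probes with no mouse number, and 3 with the bare negative-control mean. Leaving out the highest negative control, an alternative chosen after seeing the data, gave 1 in IL-1β vesicles, miR-219-5p at 6 counts against a threshold of 5.87. In control vesicles the number was 1 in the main setting, 3 with the bare mean, and 0 with the 95th percentile of probes with no mouse number and with the higher threshold of the pair. Counting miR-218a and miR-218b as members, also added later, gave 1 in IL-1β vesicles and 3 in control vesicles, with summed shares of 0.303% in IL-1β vesicles and 0.309% in control vesicles. Subtracting the negative-control mean, with counts below it set to 0, took the summed share to 0.0533% in IL-1β vesicles and 0.0398% in control vesicles. These shares come only from the members above the mean. Before subtraction the member sums, 21 counts in IL-1β vesicles and 28 in control vesicles, were below the 31.25 and 32.5 of background. The shares are thus no measure of signal left above background. No member was called 2-fold apart under any scaling, but at most 1 member had a value there, so this says nothing about stability. The miR-218a ratio ran between 0.663 with positive-control scaling and 1.24 with total-count scaling, within its interval. No paired analysis was possible because each group held 1 sample. A member in IL-1β vesicles had to pass 9.67 counts, a threshold that 1 negative control at 10 counts raised.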
